A study of Mus musculus with 9 samples.

Results

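Circular RNAs (circRNAs) from 3 cyclic nucleotide phosphodiesterase genes, Pde5a, Pde4d and Pde8a, and from Akap1, an A-kinase anchoring protein gene, were followed in mouse liver. Members were all rows of the circRNA table that name 1 of these 4 host genes, which gave 10 of 11312 circRNAs and 4 of 3929 hosts. Pde5a had 4 circRNAs, Pde4d 2, Pde8a 1 and Akap1 3. The genes were selected on the differences in back-splice counts between the groups of these same libraries, so their values are given as a description. Outcomes of the test across all circRNAs are listed for them further on, as part of that description.

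The 9 libraries came from livers of wild-type C57 BL6 mice (8 weeks, about 20 g) in 3 groups of 3. Mice of the dmPGE2+APAP group were injected with 300 µg/kg of dmPGE2, a stable analogue of prostaglandin E2, 1 hour before 500 mg/kg of acetaminophen (APAP). The APAP group had the same overdose alone, and the Control group had saline. Livers were collected 6 hours after APAP, so the data cover a single early time in injured tissue. As nothing in the labels ties a library to an animal, p-values speak only of the scatter between these libraries.

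Cyclic AMP and cyclic GMP are second messengers made by cyclases and broken down by phosphodiesterases. Prostaglandin E2 raises cyclic AMP in cells that carry its Gs-coupled receptors, and cyclic AMP then acts largely through protein kinase A. The Pde4d and Pde8a enzymes break down cyclic AMP and the Pde5a enzyme cyclic GMP, while the Akap1 protein holds protein kinase A at the outer mitochondrial membrane. A circRNA forms when the end of an exon is spliced back to the start of the same or an earlier exon, and the joint, the back-splice junction, identifies it in reads. The values are counts of such junction reads, and reads of the linear messenger RNAs of these genes were not analysed here as a level.

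The junctions of the 7 phosphodiesterase circRNAs are shown because they are the sequence by which each ring was counted, and because 3 of them share an exon end with another ring. Each line gives the last 30 bases of the last exon in lower case and the first 30 bases of the first exon in capitals, 5′ to 3′ on the sense strand. They were read from GENCODE transcripts of build GRCm38 at the deposited ends, and all bases are coding.
mmu_circ_0001165 (Pde5a, exon 2 to exon 2): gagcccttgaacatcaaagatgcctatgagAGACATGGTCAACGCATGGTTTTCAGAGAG
mmu_circ_0001166 (Pde5a, exon 12 to exon 7): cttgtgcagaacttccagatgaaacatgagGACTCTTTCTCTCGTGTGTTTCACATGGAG
novel_circ_0009075 (Pde5a, exon 11 to exon 8): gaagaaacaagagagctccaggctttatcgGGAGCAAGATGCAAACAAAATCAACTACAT
mmu_circ_0001167 (Pde5a, exon 12 to exon 8): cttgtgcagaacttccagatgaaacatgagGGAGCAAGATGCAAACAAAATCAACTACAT
novel_circ_0002514 (Pde4d, exon 7 to exon 4): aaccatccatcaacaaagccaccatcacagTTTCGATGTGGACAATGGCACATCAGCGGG
novel_circ_0002515 (Pde4d, exon 13 to exon 9): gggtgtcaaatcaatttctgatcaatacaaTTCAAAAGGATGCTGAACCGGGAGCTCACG
novel_circ_0013229 (Pde8a, exon 9 to exon 7): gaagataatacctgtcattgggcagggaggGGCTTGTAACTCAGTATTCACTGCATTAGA
The lines show that mmu_circ_0001166 and mmu_circ_0001167 end in the same exon 12 and that novel_circ_0009075 and mmu_circ_0001167 start in the same exon 8. These 3 Pde5a rings are therefore separate junctions built from shared splice sites. No sequence is given for the Akap1 rings.

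Pde5a (ENSMUSG00000053965, GRCm38 chr3:122728947-122859374, plus strand) has 21 exons in transcript Pde5a-204. Its circRNA mmu_circ_0001165 is exon 2 alone, at chr3:122747889-122748477, 589 bases long. The other 3 Pde5a rings overlap each other downstream. Exons 7 to 12 lie within mmu_circ_0001166 (chr3:122781567-122818067), exons 8 to 11 within novel_circ_0009075 (chr3:122794260-122804609) and exons 8 to 12 within mmu_circ_0001167 (chr3:122794260-122818067). Pde4d (ENSMUSG00000021699, chr13:108449948-109953461, plus strand) gave 2 rings that do not overlap. In the numbering of Pde4d-209, novel_circ_0002514 (chr13:109740387-109772680) runs over exons 4 to 7 and novel_circ_0002515 (chr13:109933868-109939361) over exons 9 to 13. Pde8a (ENSMUSG00000025584, chr7:81213596-81334533, plus strand) gave novel_circ_0013229 (chr7:81300640-81306783), over exons 7 to 9 of 22.

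Akap1 (ENSMUSG00000018428, chr11:88830792-88864586, minus strand) gave 3 rings of different build. Exons 2 and 3 of Akap1-201 lie within novel_circ_0001605 (chr11:88841169-88845865). The ring novel_circ_0001606 (chr11:88843590-88845865) starts at the same exon 2 and ends at an exon annotated only in transcripts marked for nonsense-mediated decay. The third, novel_circ_0001607 (chr11:88849426-88850194), is 769 bases of intron 1, which is 18531 bases long. Neither of its ends is an annotated exon end, 0 annotated exons overlap it, and it lies 3560 bases before exon 2. Of the 10 rings, 9 thus have both ends at annotated exon ends.

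**Figure D1:**
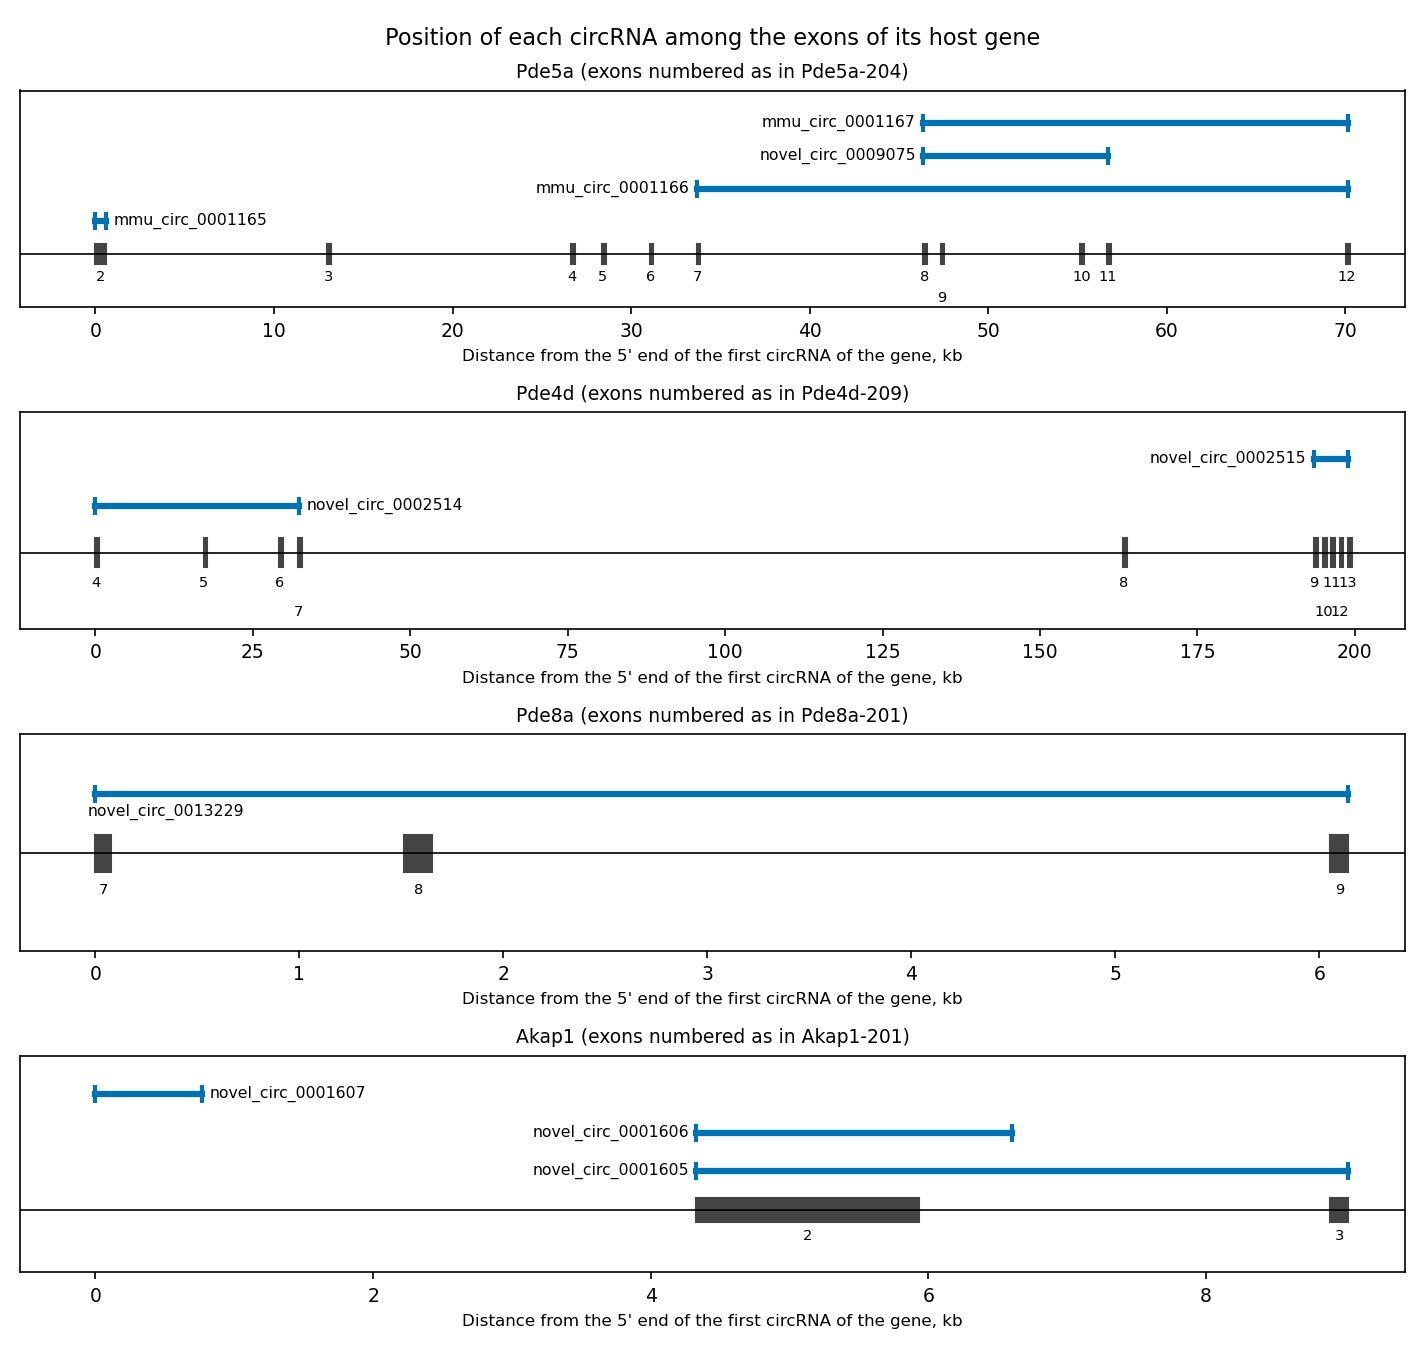
Position of the 10 circRNAs (blue bars) among exons (dark boxes, numbered, from GENCODE M21; narrow exons are drawn wider than scale) of the host genes, in kb along the sense strand from the 5′ end of the first circRNA of each gene. Pde5a has 1 single-exon ring and 3 overlapping rings, the Pde4d rings are apart, and novel_circ_0001607 of Akap1 lies in intron 1.

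Which exons each ring retains is less sure than its junction. For mmu_circ_0001166 the feature list deposited for the ring omits exons 10 and 11 of the 6 within it, giving 412 bases, while the deposited spliced length of 648 equals that of all 6 exons. For novel_circ_0009075 the list omits exon 9, and for novel_circ_0002515 exons 10 and 11. For the Akap1 rings novel_circ_0001605 and novel_circ_0001606 it omits exon 2 and holds 134 and 107 bases. The exons of Akap1-201 within these rings hold 1741 and 1607 bases. The list for mmu_circ_0001167 holds all 5 exons, 580 bases. Back-splice reads do not show the inner exons, so these differences are given as the table has them.

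Depth differed strongly in 1 library. Back-splice reads numbered 99102 to 120531 in the dmPGE2+APAP libraries, 69268 to 109453 in the APAP libraries, and 154449, 129971 and 4362 in Control 1, 2 and 3. Levels below are counts per 1000000 back-splice reads of the library (CPM), and 1 read was worth 6.47 to 14.4 CPM in the first 8 libraries and 229 CPM in Control 3. No library lists a count of 1, the lowest listed being 2, so a 0 may stand for reads below the authors' minimum. All 10 circRNAs were listed at 0 in Control 3, as were 84.6% of the 4331 circRNAs that had at least 5 reads in at least 3 libraries. At the highest level in any other library, the host sums there would have come to 1.89 reads for Pde4d and 3.12 for Pde8a. For Pde5a they would have come to 4.30 reads and for Akap1 to 7.81. With so few reads these zeros carry little information, least for Pde4d and more for Akap1. The 3 Control columns were assigned to saline by elimination, and their numbers are those of the columns.

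Pde5a circRNAs were seen in all APAP libraries and were uneven elsewhere. Summed over its 4 rings, Pde5a had 78, 6 and 0 back-splice reads in dmPGE2+APAP 1 to 3, 107, 103 and 66 in APAP 1 to 3, and 26, 0 and 0 in Control 1 to 3. As levels these were 647, 60.5 and 0 CPM with dmPGE2+APAP, 985, 941 and 953 CPM after APAP, and 168, 0 and 0 CPM in Control. The 3 APAP libraries stood close together and above all 6 others, while within the dmPGE2+APAP group 1 library stood far above the other two. Group means were 236 ± 357 CPM with dmPGE2+APAP, 960 ± 22.6 CPM after APAP and 56.1 ± 97.2 CPM in Control (SD, n = 3 each). Over Control 1 and 2 alone the Control mean was 84.2 ± 119 CPM. In the order of the means, dmPGE2+APAP and Control did not differ beyond their spread, as their libraries overlapped.

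The single-exon ring mmu_circ_0001165 had 42, 0 and 0 reads with dmPGE2+APAP, 41, 56 and 27 after APAP, and 26, 0 and 0 in Control. It was the most read Pde5a ring in each APAP library, with 38.3% to 54.4% of the host's back-splice reads, and it made up all 26 reads of Control 1. At the level of dmPGE2+APAP 1, the other two libraries of that group would have held 34.5 and 40.0 reads in place of 0. Likewise Control 2 would have held 21.9 reads at the level of Control 1.

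The overlapping rings had fewer reads. For novel_circ_0009075 the counts were 16, 6 and 0 with dmPGE2+APAP, 27, 24 and 14 after APAP, and 0 in each Control library. For mmu_circ_0001167 they were 13, 0 and 0 with dmPGE2+APAP, 24, 15 and 14 after APAP, and 0 in each Control library. For mmu_circ_0001166 they were 7, 0 and 0 with dmPGE2+APAP, 15, 8 and 11 after APAP, and 0 in each Control library. All 3 thus had reads in each APAP library and in dmPGE2+APAP 1, and none was listed in Control 1 although that was the deepest library. Reads in all 3 APAP libraries with 0 in all 3 Control libraries were found in 59 of the 4331 circRNAs (1.36%).

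Between groups, each of the 4 Pde5a rings had its 3 APAP libraries above every dmPGE2+APAP library and above every Control library. Over all circRNAs in the test, 4.13% stood lower with dmPGE2+APAP than after APAP without overlap, and 6.93% stood higher after APAP than in Control without overlap. The Pde5a sum was likewise apart in both comparisons, as were 4.54% and 8.1% of all host sums. For the host sum, the log2 fold change was -1.96 ± 0.58 (SE) for dmPGE2+APAP against APAP, 3.50 ± 0.69 for APAP against Control and 1.54 ± 0.68 for dmPGE2+APAP against Control, by edgeR's quasi-likelihood fit. For mmu_circ_0001165 the same 3 values were -1.74 ± 0.71, 2.36 ± 0.78 and 0.62 ± 0.78. No fold is given for the other Pde5a rings against Control, where every library was listed at 0.

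Single libraries set the size of these values. Without dmPGE2+APAP 1 the Pde5a log2 fold change for dmPGE2+APAP against APAP was -5.00, and with it left in but dmPGE2+APAP 2 or 3 left out it was -1.51 or -1.38. For dmPGE2+APAP against Control, the value turned to -1.49 without dmPGE2+APAP 1 and was 0.71 without Control 2, so its direction rested on 1 library. That of mmu_circ_0001165 turned to -0.15 without Control 2. For APAP against Control, the value was 3.39 without Control 3 and 2.66 without Control 2, and without Control 1 no Control library had a Pde5a read.

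**Figure D2:**
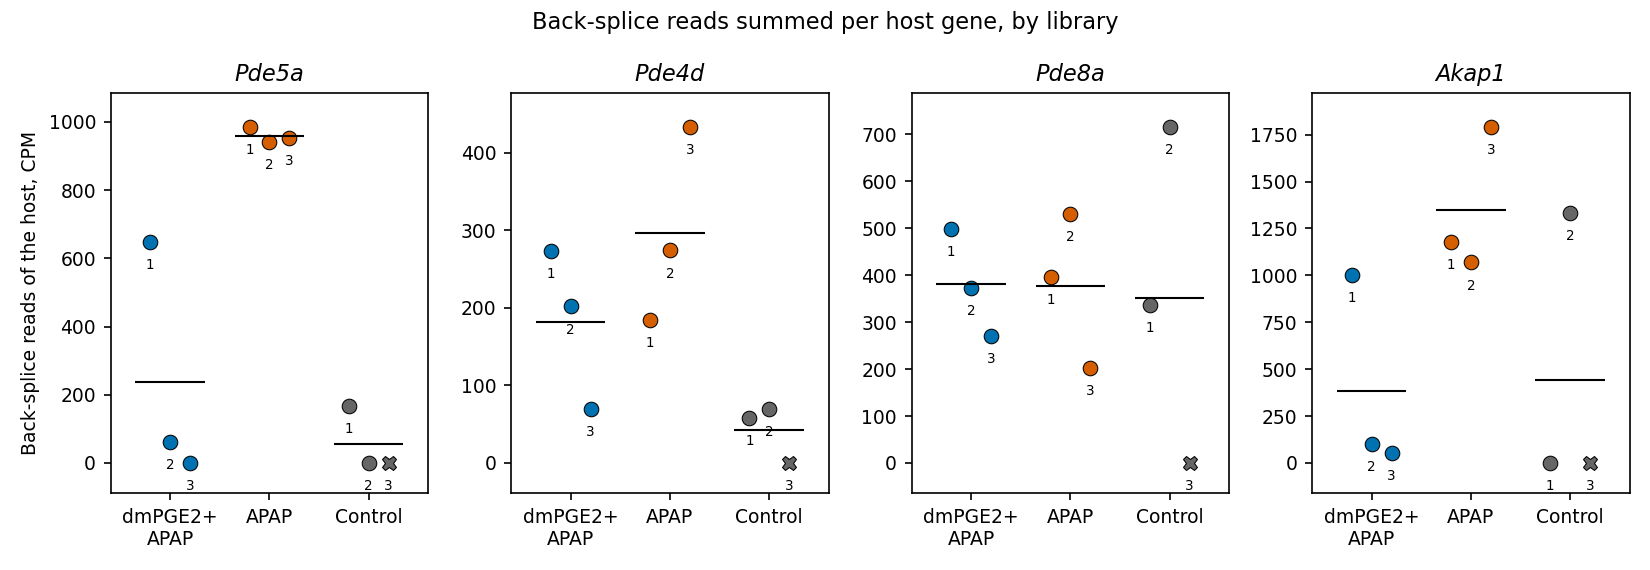
Back-splice reads summed per host gene in CPM (linear axes, 1 panel per gene) for each library, numbered within its group, with the mean of each group as a line; the cross marks the shallow library Control 3. The Pde5a sums of the 3 APAP libraries sit at 941 to 985 CPM above all others, and in Akap1 dmPGE2+APAP 1 and Control 2 stand near the APAP libraries.

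Pde4d circRNAs, from a gene whose long enzyme forms are phosphorylated and activated by protein kinase A, were fewer. Their sum was 33, 20 and 8 reads with dmPGE2+APAP, 20, 30 and 30 after APAP, and 9, 9 and 0 in Control. In CPM these were 274, 202 and 69.7 with dmPGE2+APAP, 184, 274 and 433 after APAP, and 58.3, 69.2 and 0 in Control. Both treated groups lay above every Control library, by as little as 69.7 against 69.2 CPM, and they overlapped each other. For dmPGE2+APAP against Control, 8.52% of all host sums stood apart in that direction. Means were 182 ± 104 CPM with dmPGE2+APAP, 297 ± 126 CPM after APAP and 42.5 ± 37.2 CPM in Control (SD, n = 3 each).

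The 2 Pde4d rings differed in where they were listed. The downstream ring novel_circ_0002515 had 11, 14 and 8 reads with dmPGE2+APAP, 10, 15 and 17 after APAP, and 0 in each Control library. It was the only ring of the 10 seen in all 6 treated libraries and in no Control library. The upstream ring novel_circ_0002514 had 22, 6 and 0 reads with dmPGE2+APAP, 10, 15 and 13 after APAP, and 9, 9 and 0 in Control. All Pde4d reads of Control 1 and 2 thus came from the upstream ring, and in dmPGE2+APAP 3 all 8 came from the downstream one.

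For the Pde4d sum, the log2 fold change was -0.66 ± 0.83 (SE) for dmPGE2+APAP against APAP, 2.27 ± 0.95 for APAP against Control and 1.61 ± 0.95 for dmPGE2+APAP against Control. Without Control 3 the values against Control were 2.13 for APAP and 1.46 for dmPGE2+APAP. The upstream ring had log2 fold changes of -0.64 ± 1.27, 1.25 ± 1.34 and 0.60 ± 1.34 in the same order, each within its error of 0. Without dmPGE2+APAP 1 the first of these was -2.12 and the third turned to -0.82, and without dmPGE2+APAP 3 they were -0.07 and 1.15. Without Control 3 the third was 0.33. For the Pde4d sum, dmPGE2+APAP against APAP gave -1.12 without dmPGE2+APAP 1, -0.27 without dmPGE2+APAP 3 and -0.33 without APAP 3. The downstream ring stood above every Control library in both treated groups. The upstream ring did so only after APAP, at 92.0 CPM or more against at most 69.2 CPM in Control. Of all circRNAs in the test, 8.1% stood above every Control library with dmPGE2+APAP and 6.93% after APAP.

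The Pde8a ring was read in all 8 deeper libraries and did not separate the groups. Pde8a encodes a high-affinity cyclic AMP phosphodiesterase. Its ring novel_circ_0013229 had 60, 37 and 31 reads with dmPGE2+APAP, 43, 58 and 14 after APAP, and 52, 93 and 0 in Control. In CPM these were 498, 373 and 270 with dmPGE2+APAP, 396, 530 and 202 after APAP, and 337, 716 and 0 in Control. The 3 groups overlapped throughout, with APAP 3 the lowest and Control 2 the highest of the 8. Means of 380 ± 114 CPM with dmPGE2+APAP, 376 ± 165 CPM after APAP and 351 ± 358 CPM in Control (SD, n = 3 each) differed by less than their spread. Over Control 1 and 2 alone the Control mean was the highest of the 3 groups, at 526 ± 268 CPM. Log2 fold changes of the host sum were 0.01 ± 0.55 (SE) for dmPGE2+APAP against APAP, -0.23 ± 0.56 for APAP against Control and -0.22 ± 0.56 for dmPGE2+APAP against Control. Each of the 3 changed sign with the libraries used. Leaving out 1 library at a time gave -0.28 to 0.36 for dmPGE2+APAP against APAP, -0.59 to 0.50 for APAP against Control and -0.49 to 0.52 for dmPGE2+APAP against Control. Both highest values against Control came without Control 2. Of all circRNAs in the test, 34.3% were read in each of those 8 libraries.

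Akap1 held the widest contrast of zeros and high counts. Its intronic ring novel_circ_0001607 had 104, 0 and 0 reads with dmPGE2+APAP, 128, 117 and 124 after APAP, and 0, 167 and 0 in Control. The ring was therefore at 863 CPM in 1 dmPGE2+APAP library, at 1069 to 1790 CPM after APAP and at 1285 CPM in 1 Control library, and was listed nowhere else. At the level of dmPGE2+APAP 1, the other libraries of that group would have held 85.5 and 99.0 reads in place of 0, and at the level of Control 2, Control 1 would have held 198 reads. The 3 APAP libraries stood above every dmPGE2+APAP library and overlapped the Control libraries.

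The exonic Akap1 rings were scarce and were not listed in any APAP library. For novel_circ_0001605 the counts were 0, 10 and 6 with dmPGE2+APAP and 0, 6 and 0 in Control. For novel_circ_0001606 they were 17, 0 and 0 with dmPGE2+APAP and 0 in each Control library. With few reads each, these 2 rings had no order between groups beyond the scatter of single libraries. In dmPGE2+APAP 2 and 3 they were the whole Akap1 signal, while the intronic ring made up 86.0% of it in dmPGE2+APAP 1, 96.5% in Control 2 and all of it in the APAP libraries.

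The Akap1 sum was 1004, 101 and 52.3 CPM with dmPGE2+APAP, 1178, 1069 and 1790 CPM after APAP, and 0, 1331 and 0 CPM in Control. Means were 386 ± 536 CPM with dmPGE2+APAP, 1346 ± 389 CPM after APAP and 444 ± 768 CPM in Control (SD, n = 3 each). Over Control 1 and 2 alone the Control mean was 666 ± 941 CPM. In the dmPGE2+APAP and Control groups the SD exceeded the mean, and those groups overlapped. The log2 fold change of the sum was -1.73 ± 0.49 (SE) for dmPGE2+APAP against APAP, 1.21 ± 0.50 for APAP against Control and -0.53 ± 0.51 for dmPGE2+APAP against Control. Leaving out dmPGE2+APAP 1 gave -4.11 for the first of these and -2.89 for the third, which was -0.07 without dmPGE2+APAP 2, -0.04 without dmPGE2+APAP 3 and -1.26 without Control 1. Leaving out Control 1 gave 0.47 for APAP against Control, leaving out Control 3 gave 0.97, and without Control 2 no Control library had an Akap1 read, so that both treated groups then stood above Control.

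**Figure D3:**
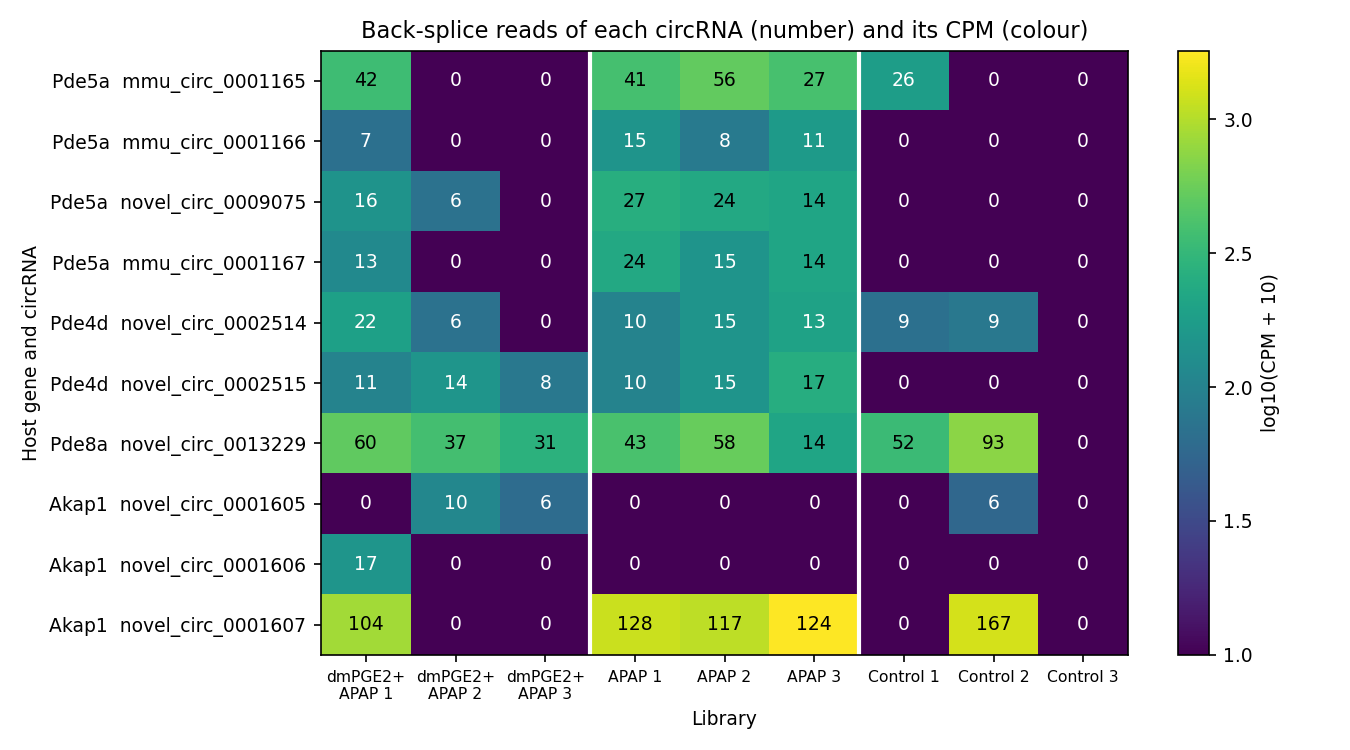
Back-splice reads (numbers) and level (colour, log10 of CPM plus 10) of each of the 10 circRNAs in each of the 9 libraries. The Pde5a rings fill the 3 APAP columns and dmPGE2+APAP 1, novel_circ_0002515 fills the 6 treated columns, novel_circ_0013229 fills 8 columns, and novel_circ_0001607 alternates between 0 and over 100 reads inside 2 groups.

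Counts of calls were small. In edgeR with p-values adjusted over all circRNAs by Benjamini-Hochberg at 0.05, 9 of the 10 member rings had enough reads to enter. For dmPGE2+APAP against APAP 1 of the 9 passed, novel_circ_0001607 with a log2 fold change of -2.06 ± 0.45 (SE), where 0.0693% of all circRNAs passed. For APAP against Control 0 of the 9 passed, where 0.139% did, and for dmPGE2+APAP against Control 0 of the 9, where 0.115% did. On host sums, 0 of 4 passed for dmPGE2+APAP against APAP (0.127% of 2358 hosts), Pde5a alone for APAP against Control (0.339%) and 0 of 4 for dmPGE2+APAP against Control (0.17%). Nothing is read from these counts, since the genes were chosen knowing them.

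Neither call held in every fit, and further ones appeared in single fits. The one on novel_circ_0001607 was absent without dmPGE2+APAP 2 (log2 fold change -1.53), dmPGE2+APAP 3 (-1.48), APAP 1 (-2.11), APAP 3 (-1.94), Control 1 (-2.08) or Control 3 (-2.09). The one on Pde5a was absent without APAP 1 (3.48), Control 2 (2.66) or Control 3 (3.39). Without dmPGE2+APAP 1, mmu_circ_0001165 and the Pde5a and Akap1 sums passed as lower with dmPGE2+APAP than after APAP, and novel_circ_0001607 and the Akap1 sum passed as lower with dmPGE2+APAP than in Control. Without Control 2, novel_circ_0001607 and the Akap1 sum passed the opposite way for dmPGE2+APAP against Control, and as higher for APAP against Control. Without dmPGE2+APAP 3, novel_circ_0009075 passed as higher after APAP than in Control. In all but the Pde5a and Akap1 sums without dmPGE2+APAP 1, these fits set a group against one with no reads, so no fold is given. DESeq2 gave no adjusted p for either of the 2 calls. It passed 2 of the 9 rings for APAP against Control, novel_circ_0009075 and novel_circ_0002515, both listed at 0 in each Control library. How many of all circRNAs and hosts passed in such fits is given in the closing section, as ranges where a library was left out. Nothing is read from these calls either, since the genes were chosen with these data known.

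High counts beside zeros were rare among abundant circRNAs. Of 298 circRNAs with at least 100 reads in some library other than Control 3, 11 (3.69%) were listed at 0 in at least 1 more of these 8 libraries and 6 (2.01%) in at least 3. The Akap1 ring novel_circ_0001607 was 1 of those 6 and the only 1 of the 9 intronic circRNAs at that depth with a zero. Among 34 single-exon circRNAs of that depth 6 (17.6%) had a zero, against 3 of 232 (1.29%) with 2 to 5 exons. At a minimum of 50 reads, where mmu_circ_0001165 enters, 20 of 79 single-exon circRNAs (25.3%) and 46 of all 718 (6.41%) had one.

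Several members shared the same empty libraries. Reads in dmPGE2+APAP 1 with 0 in the other two libraries of its group marked 5 of the 10 rings, 3 of Pde5a and 2 of Akap1, of which all but novel_circ_0001606 entered the test. Over all circRNAs in the test, this was the case in 6.14% for dmPGE2+APAP 1, and the same with dmPGE2+APAP 2 or 3 as the sole library was the case in 4.62% and 5.1%. Exactly the listing of novel_circ_0001607, with reads in all APAP libraries, dmPGE2+APAP 1 and Control 2 alone, was found in 8 of 4331 circRNAs (0.185%). That of mmu_circ_0001165 was found in 12 (0.277%), and that shared by mmu_circ_0001166 and mmu_circ_0001167 in 9 (0.208%). Because these listings were taken from the members and shares of other exact listings were not computed, nothing is read from their rarity.

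**Figure D4:**
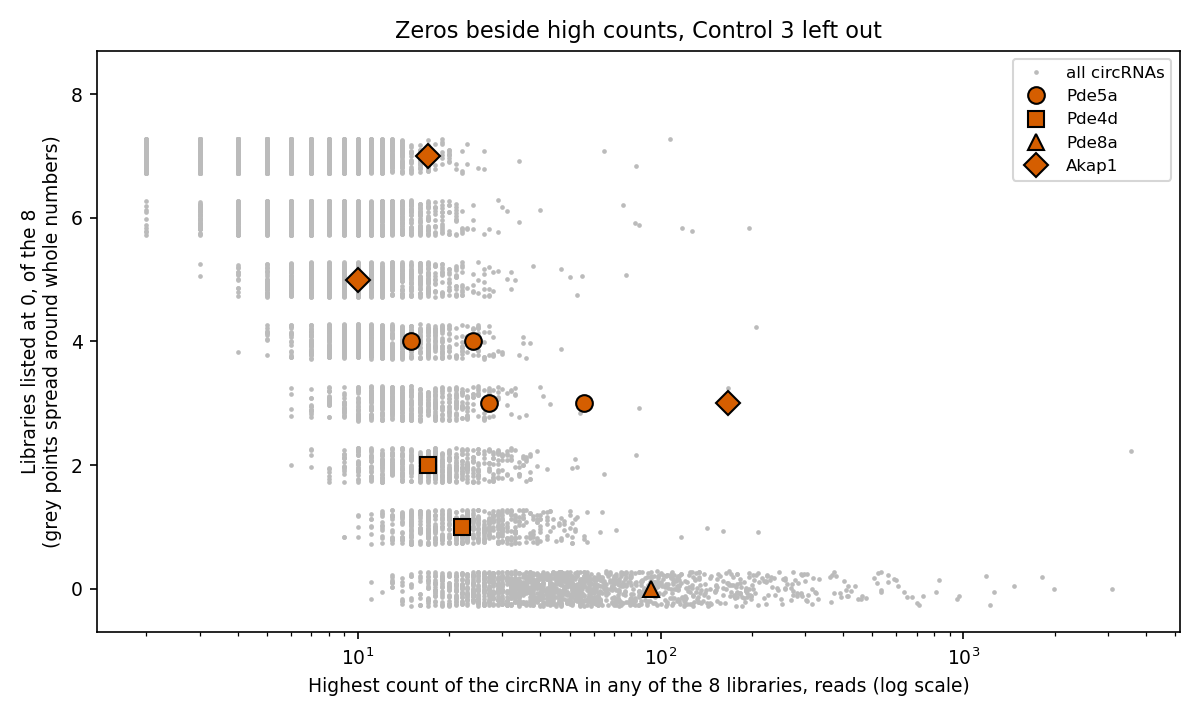
Highest count of each circRNA in any of the 8 libraries other than Control 3 (log axis) against the number of those libraries in which it is listed at 0; grey points are all circRNAs with reads there, spread vertically for sight, and orange symbols are the members. The Akap1 ring novel_circ_0001607 lies at 167 reads with 3 zeros, in a sparse region, while the Pde8a ring has no zero.

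The table also gives, for libraries with back-splice reads, the reads at the same ends that do not cross the junction. From them a circular share was computed, with each junction read counted for both ends. The share of mmu_circ_0001165 was 96.5% over its 5 libraries (92.3% to 100%), from 192 junction and 14 other reads. That of novel_circ_0001607 was 95.2% over 5 libraries (91.4% to 98.5%), from 640 junction and 65 other reads. The median of 9559 circRNAs with usable values was 29.6% (quartiles 15.8% and 51.2%), and 97.9% and 97.7% of them lay below these 2 rings. Among single-exon circRNAs 96.7% lay below mmu_circ_0001165. Among intronic ones, whose median was 38.7%, 94.6% lay below novel_circ_0001607. Both rings were thus nearly free of other reads at their ends wherever they were listed. Other members with reads in dmPGE2+APAP 1 alone of its group had lower shares. These were 72.6% for mmu_circ_0001166, 71.4% for mmu_circ_0001167 and 17.2% for novel_circ_0001606. Whether a high share goes with zeros beside high counts was not tested.

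The remaining phosphodiesterase rings were lower and more variable. Shares were 72.6% for mmu_circ_0001166, 71.4% for mmu_circ_0001167 and 57.4% for novel_circ_0009075 of Pde5a, and 76.5% for novel_circ_0002515 and 59.6% for novel_circ_0002514 of Pde4d. Each lay above the upper quartile of all circRNAs. The Pde8a ring had 75.4%, with 43.1% in APAP 3 against 69.2% to 83.4% in the other 7 libraries. That library also gave the ring its lowest count, at 14 junction and 37 other reads. In Akap1, novel_circ_0001606 had 17.2% in its 1 library, with 17 junction and 164 other reads, and the values of novel_circ_0001605 could not be used. Across whole libraries the share was 19.6%, 31.4% and 36.7% with dmPGE2+APAP, 19.0%, 26.7% and 29.0% after APAP, and 34.7%, 29.9% and 2.82% in Control. Its part in the member values was not tested.

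**Figure D5:**
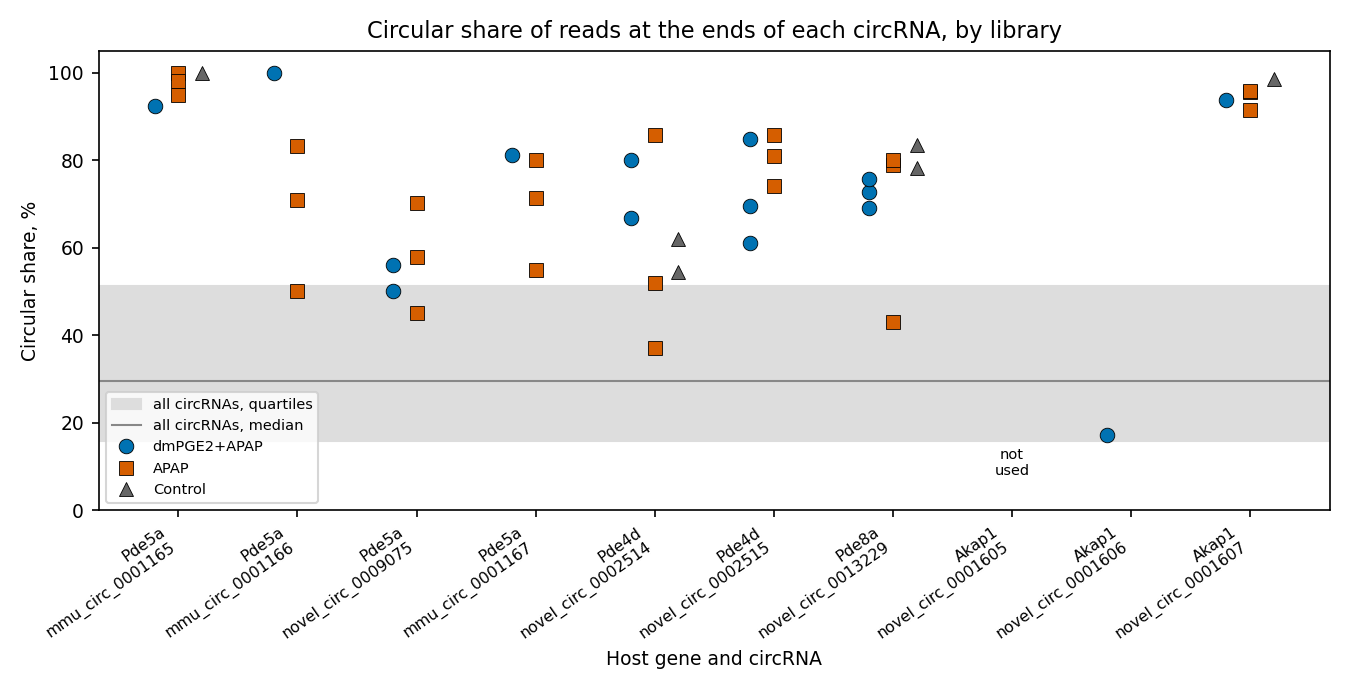
Circular share of reads at the ends of each of the 10 circRNAs, in percent, with 1 symbol per library that lists the ring, coloured by group; the grey band and line give the quartiles and median of all circRNAs. The rings mmu_circ_0001165 and novel_circ_0001607 lie above 91% in every library that lists them, and the other rings spread widely.

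The host genes most like the members in profile were found over the 8 libraries other than Control 3, from the root mean square difference of centred log2(CPM + 20). For Pde5a they were Parvb (1.27), Eipr1 (1.36) and Slc44a1 (1.38), where the median over 2357 hosts was 2.41. Parvb, which encodes a focal adhesion protein, had 10, 0 and 0 reads with dmPGE2+APAP, 19, 7 and 9 after APAP and 0 in each Control library. For Akap1 they were Lrrc28 (1.18), Rptor (1.31) and Gnptab (1.40), with a median of 2.41. Lrrc28 had 22, 0 and 5 reads with dmPGE2+APAP, 24, 9 and 13 after APAP, and 0, 51 and 0 in Control. These distances are large because zeros weigh heavily in them. The steadier members had closer matches. For Pde4d they were Mfn1 (0.34), a mitochondrial fusion GTPase gene, Emc2 (0.38) and Jcad (0.41), with a median of 1.19, and for Pde8a Asb3 (0.18), Zbtb7c (0.28) and Nsd3 (0.29), with a median of 0.93.

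Other genes of the pathway gave few circRNAs. Rings were listed for 8 of 24 phosphodiesterase genes and 6 of 16 A-kinase anchoring protein genes, members included. They were listed for 4 of 24 cyclase and natriuretic receptor genes, 6 of 24 cyclic nucleotide effectors, 8 of 12 genes of the CREB family and its coactivators, and 8 of 28 genes of prostaglandin receptors, G proteins and prostaglandin handling. Beside the members, 17 of these hosts had enough reads for the test, and 0 passed in any of the 3 comparisons. At an unadjusted p under 0.05 edgeR on all 9 libraries gave 0 in each, and DESeq2 gave 1 for APAP against Control, Akap7, and 0 in the others. With a library left out, edgeR gave Akap7 without Control 3 and Sik3 without Control 1, each in both comparisons against Control. Without APAP 1 it gave Akap7 and Pde4a for APAP against Control and Pde4a for dmPGE2+APAP against APAP. In these fits 0 passed after adjustment. The median log2 fold change of the 17 was -0.07 for dmPGE2+APAP against APAP, 0.00 for APAP against Control and 0.30 for dmPGE2+APAP against Control, beside 0.03, 0.15 and 0.20 over all 2358 hosts.

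The other phosphodiesterases were low and uneven. Pde3b, an insulin-responsive phosphodiesterase gene, had 12, 6 and 19 reads with dmPGE2+APAP, 29, 0 and 7 after APAP, and 13, 11 and 0 in Control. Pde4a, a relative of Pde4d, had 14, 16 and 16 reads with dmPGE2+APAP, 7, 0 and 0 after APAP, and 18, 7 and 0 in Control. Its dmPGE2+APAP libraries stood above the APAP ones, as did those of 5.47% of all host sums. The log2 fold change of 2.56 ± 1.64 (SE) did not pass (edgeR adjusted p = 0.9998). Pde7b had at most 10 reads in any library. The host sums of Pde5a and Pde4a thus did not share a direction in that comparison.

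Among anchoring proteins Akap7 had the most circRNA reads, at 1045, 1049 and 610 CPM with dmPGE2+APAP, 801, 1297 and 1054 CPM after APAP, and 570, 469 and 1834 CPM in Control, the last value resting on 8 reads. Its log2 fold change for APAP against Control was 0.77 ± 0.41 (SE, edgeR adjusted p = 0.869). Akap13 had 340, 283 and 366 CPM with dmPGE2+APAP, 359, 320 and 86.6 CPM after APAP, and 337, 285 and 0 CPM in Control, and Akap10 was at 0 in 1 library of each group. Both had reads in Control 1, where Akap1 had none.

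Upstream and downstream of the enzymes, values were small beside their errors or rested on few reads. Adcy9, an adenylyl cyclase gene, had reads in 3 libraries (6, 5 and 26), and Adcy6 and Gucy1a2 did not reach the test. Rapgef6, an exchange factor gene for Rap GTPases, stood at 131 to 192 CPM with dmPGE2+APAP, 155 to 260 CPM after APAP, and 259, 185 and 0 CPM in Control. Rapgef2 and Prkaca, which encodes a catalytic subunit of protein kinase A, were at 0 in several libraries. The coactivator genes Ep300 and Crebbp had log2 fold changes of 0.06 ± 0.45 and -0.38 ± 0.44 (SE) for dmPGE2+APAP against APAP and 0.50 ± 0.49 and 0.67 ± 0.46 for APAP against Control. Creb1, the transcription factor that protein kinase A phosphorylates, had 0.48 ± 0.51 and 0.26 ± 0.54. Ptgr2, a prostaglandin reductase gene, had the most reads of its list, with log2 fold changes of -0.04 ± 0.34 and -0.19 ± 0.35, while Gnaq and Grk5 had -0.07 ± 1.21 and 0.13 ± 2.31 for dmPGE2+APAP against APAP. Each of these values lay within 2 SE of 0.

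In whole liver, fewer cells of a type and less RNA per cell cannot be told apart, so marker hosts were read in the same libraries. CircRNAs of 11 of 15 hepatocyte markers summed to 6519 to 7002 CPM with dmPGE2+APAP, 5632 to 6179 CPM after APAP and 6701 to 7732 CPM in Control 1 and 2. Single hepatocyte markers did not share a direction. Slco1b2, the most read of them, had 2531, 2248 and 2223 CPM after APAP against 3451 and 3932 CPM in Control 1 and 2. Alb went the other way, at 239, 247 and 173 CPM after APAP against 25.9 and 61.6 CPM in Control 1 and 2. Of 16 markers of stellate cells, fibroblasts and smooth muscle, cells in which Pde5a is well known, only Rgs5 had a ring, with 8 reads in dmPGE2+APAP 2 and 0 elsewhere, and Acta2, Des, Lrat and Col1a1 gave none. For 7 of 14 endothelial markers the sums were 1551 to 1836 CPM with dmPGE2+APAP, 780 to 2209 CPM after APAP and 1847 to 2078 CPM in Control 1 and 2. Adgre1, the 1 of 9 macrophage markers with rings, ran at 696 to 967 CPM with dmPGE2+APAP, 245 to 975 CPM after APAP and 686 to 816 CPM in Control 1 and 2. Pkhd1, 1 of 7 cholangiocyte markers, ran at 200 to 464 CPM, 183 to 331 CPM and 97.1 to 231 CPM in the same order. Ets1, 1 of 11 neutrophil and lymphocyte markers, was at 175 CPM in APAP 1 and at 0 in the other 2 APAP libraries. It ran at 60.5 to 183 CPM with dmPGE2+APAP and at 46.2 to 58.3 CPM in Control 1 and 2. Few markers form circRNAs here, and the part of cell makeup in the member values was not tested.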

How the data were processed

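The deposited table gives, per the file headers, for each circRNA and library, a TPM value and a count of reads across the back-splice junction. The counts are whole numbers as the authors left them. The authors' TPM, checked in the 6 libraries named in the headers, is the count times 1 constant per library, without a length term, and was not used further. A further 3 TPM columns were not used. Other deposited columns (positions, host gene, features, non-junction reads) were used as given. Libraries were made from 1 µg of ribosome-depleted, strand-marked total RNA, per the labels' protocols. The submitters' processing notes name HISAT2 and GRCm38 (mm10) without giving either a role. For the circRNA caller and its filters, details were "not given in the sources used here". The 3 columns coded BC went to Control by elimination.

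The members and gene lists were chosen with earlier results of these data known. CircRNAs (4331) and host sums (2358) with 5 or more reads in 3 or more of the 9 libraries entered edgeR 4.0.16 (R 4.3.3). The quasi-likelihood test was used with TMM on all 9 libraries and Benjamini-Hochberg at 0.05. The fit was also run on simulated counts that had the same spread setting for every circRNA. These were not made with zeros beside high counts inside a group, so they do not bear on the member calls. SE is the size of the log2 fold change over the root of F. Named pathway hosts are the 3 of highest mean CPM per list. Alternatives were DESeq2 1.42.0, its size factors in edgeR, no filter, a replicate block and each library left out. Non-junction lists could not be split in 1753 circRNAs. The circular share counts each junction read for both ends.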

Additional observations from a re-analysis of the deposited data

How the results depend on the processing

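Over 29 member log2 fold changes there were 343 alternative values, fits with a group at 0 in every library left aside. Of these values, 335 moved by no more than the within-group SD of log2(CPM + 20) and 8 moved more. That SD is wide where zeros stand beside high counts, and it is not the SE given with the fold changes. Of the 29, 20 kept 1 sign throughout. Leaving out 1 library at a time gave 3 to 10 circRNAs past the test for APAP against Control (6 with all libraries), 1 to 3 for dmPGE2+APAP against APAP (3) and 4 to 8 for dmPGE2+APAP against Control (5). For host sums it gave 4 to 8 (8), 0 to 6 (3) and 2 to 6 (4) in the same order. DESeq2 gave 14, 0 and 1 circRNAs and 13, 1 and 1 hosts. With no filter on low counts, dmPGE2+APAP against APAP gave 9 circRNAs and 6 hosts, and dmPGE2+APAP against Control gave 12 circRNAs. The causes were not tested, and leaving out a library also leaves fewer samples. Equal numbers did not pair the dmPGE2+APAP and APAP libraries (correlations of deviations -0.018, 0.0063 and -0.022 over 4331 circRNAs). A replicate block between them gave 3 circRNAs and 5 hosts past the test, Pde5a (-3.23) and Akap1 (-2.67) among the hosts. No paired analysis was possible against Control because its columns carry no number of the labels. Akap1 also passed for dmPGE2+APAP against APAP with no filter (-1.74) and, like Pde5a, without dmPGE2+APAP 1 (-4.11, and -5.00 for Pde5a). For dmPGE2+APAP against Control, Akap1 passed as lower without dmPGE2+APAP 1 (-2.89) and as higher without Control 2, which left no Control reads. Without Control 3, ranges apart with APAP above Control were found in 8.4% of circRNAs, an alternative chosen after seeing the data. Low counts limit the member rings, and the zeros of Control 3 carry little information.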
